A study of Rattus norvegicus with 6 samples.

Results

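Genes of pre-mRNA splicing and mRNA processing were examined in the mucosa of the oviduct (endosalpinx) of mated and unmated rats. The set holds 73 of the 14506 genes measured. It comprises every gene whose symbol begins with Snrp, Lsm and a digit, Sf3a, Sf3b, Srsf, Hnrnp, Prpf or Thoc, together with Alyref. Each gene was read from its probe set of highest mean signal. The set was drawn up because Alyref and Snrpd1 had been seen to lie lower in mated rats, and the question was whether this extended to their families. The differences of these 2 genes are therefore given as a description without a test.

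All animals were adult Sprague-Dawley females, and 1 array was run for each of 3 unmated and 3 mated rats. The mated rats were caged with a fertile male at 2200 h of pro-estrus, had spermatozoa or a vaginal plug when examined 30 min later, and were killed 3 h after mating with abundant semen in the uterus. The unmated rats were kept alone and were killed at 0130 h of estrus, with an edematous uterus. Mating cannot be told apart here from the company of a male and the vaginal check. Values are log2 signals, so a difference of 1 is a doubling.

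Introns are removed by the spliceosome, which is built from small nuclear ribonucleoproteins (snRNPs), each an RNA carrying a ring of Sm or Sm-like proteins. SR proteins and hnRNPs bind the transcript and guide the choice of splice sites. The finished mRNA is handed to the export receptor by the TREX complex, which contains the THO proteins and the adaptor Alyref. This machinery works in every nucleated cell, including the ciliated and secretory cells that line the oviduct.

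Alyref and Snrpd1 lay lower in mated rats by more than 1.5-fold, as did 0.103% of all genes, and none of the other 71 members did so. For each of those 71 genes the estimated difference was below 1.2-fold, and its 95% confidence interval stayed within 1.5-fold in either direction, as it did for 95.7% of all genes. No member passed an adjusted p of 0.05 by limma, and no gene of the whole table did (0% called). Apart from Alyref and Snrpd1, whose values prompted the set, 2 of 71 members (2.82%) were lower and 0 higher at an unadjusted p under 0.05, where 1.55% of all genes were lower and 3.02% higher (4.57% in both directions). These were Prpf19 and Prpf38b. The count fell to 0 when unmated replicate 2 was left out, beside 1.17% of all genes lower. It fell to 1 without unmated replicate 1, unmated replicate 3, mated replicate 1 or mated replicate 3. The shares of all genes lower were then 1.5%, 2.14%, 4.01% and 1.39%. Without mated replicate 1 the gene that remained was Sf3a3.

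The promoters of Alyref and Snrpd1 are shown as the sequences just upstream of the genes that prompted the question, next to those of Snrpd2, a close relative in the Sm ring whose difference was 0.08, and Prpf19, the member with the next largest difference. Each is the 250 bases before the annotated start of the gene in RefSeq on rat build GRCr8, written along the strand of the gene. Capitals mark matches, on either strand, to the GC box GGGCGG, the CCAAT box CCAAT, the ETS core CCGGAAG, the TATA box TATAAA and the E-box CACGTG.
Alyref: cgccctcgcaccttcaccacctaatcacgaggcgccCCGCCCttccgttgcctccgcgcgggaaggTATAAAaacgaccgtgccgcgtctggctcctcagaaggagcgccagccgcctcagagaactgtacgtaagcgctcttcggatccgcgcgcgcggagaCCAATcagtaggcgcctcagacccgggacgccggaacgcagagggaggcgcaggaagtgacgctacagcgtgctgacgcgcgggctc
Snrpd1: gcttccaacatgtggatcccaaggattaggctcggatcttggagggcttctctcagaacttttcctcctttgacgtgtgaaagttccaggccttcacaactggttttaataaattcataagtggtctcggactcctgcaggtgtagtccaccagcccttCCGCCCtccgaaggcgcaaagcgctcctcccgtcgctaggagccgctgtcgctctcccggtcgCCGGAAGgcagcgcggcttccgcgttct
Snrpd2: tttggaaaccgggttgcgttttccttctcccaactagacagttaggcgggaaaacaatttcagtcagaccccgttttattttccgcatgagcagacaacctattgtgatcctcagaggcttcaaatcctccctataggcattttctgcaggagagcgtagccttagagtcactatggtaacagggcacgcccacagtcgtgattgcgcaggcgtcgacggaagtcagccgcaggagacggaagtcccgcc
Prpf19: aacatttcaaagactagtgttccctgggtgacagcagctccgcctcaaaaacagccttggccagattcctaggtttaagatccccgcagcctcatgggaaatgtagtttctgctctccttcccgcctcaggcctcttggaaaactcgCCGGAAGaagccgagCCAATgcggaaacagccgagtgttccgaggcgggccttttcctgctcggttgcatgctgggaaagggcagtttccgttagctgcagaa

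Alyref (chr10:106373396-106373645, minus strand) held 1 GC box, 1 CCAAT box and 1 TATA box. Snrpd1 (chr18:1969424-1969673, plus strand) held 1 GC box and 1 ETS core. Snrpd2 (chr1:87926159-87926408, plus strand) held 0 matches to the 5 motifs, and Prpf19 (chr1:216966257-216966506, plus strand) held 1 CCAAT box and 1 ETS core. Of the 73 genes, 70 had a promoter in the table. The GC box was in 60% of these 70 windows and in 32.4% of all 27457 windows of this length, the CCAAT box in 45.7% and 34.3%, and the ETS core in 24.3% and 7.74%. The E-box was in 10% and 5.79%, and the TATA box in 10% and 13.1%. The 70 windows had a median G and C content of 57.8%, beside 52% for all windows, and the shares were not adjusted for it. These matches describe letters only; overlapping matches were counted, and the windows of all genes include unnamed loci.

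Alyref encodes the adaptor that binds spliced mRNA and passes it to the export receptor Nxf1. Its log2 signal was 10.94, 11.20 and 11.44 on the arrays of unmated replicates 1, 2 and 3, and 10.22, 9.98 and 10.94 on those of mated replicates 1, 2 and 3. Mated replicates 1 and 2 were the low samples, whereas mated replicate 3 equalled unmated replicate 1, so the groups touched. The means were 11.19 ± 0.25 and 10.38 ± 0.50 (SD, n = 3 each), a log2 difference of -0.81 (SE 0.24, 95% confidence interval -1.36 to -0.27). The difference was -1.09 without mated replicate 3 and -0.61 without mated replicate 2.

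Snrpd1 encodes SmD1, a protein of the Sm ring carried by most spliceosomal snRNPs. Its signal was 10.71, 10.64 and 9.81 in unmated replicates 1, 2 and 3, and 9.78, 9.65 and 9.50 in mated replicates 1, 2 and 3. Unmated replicates 1 and 2 were the high samples; unmated replicate 3 lay 0.03 above the highest mated array, so the groups did not overlap but almost met. The means were 10.39 ± 0.50 and 9.64 ± 0.14 (SD, n = 3 each), a difference of -0.74 (SE 0.22, 95% confidence interval -1.25 to -0.23). It was -1.03 without unmated replicate 3 and -0.58 without unmated replicate 1.

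The 2 genes did not order the animals alike. Unmated replicate 3 had the highest Alyref signal and the lowest unmated Snrpd1 signal, and mated replicate 3 had the highest mated Alyref signal and the lowest Snrpd1 signal of all. Both genes also varied far more between animals of a group than the rest of the set. The SD within groups was 0.40 for Alyref and 0.37 for Snrpd1, at percentiles 98.9 and 98.5 of all genes, against a median of 0.076 for the 73 members and 0.11 for all genes. Among genes of like mean signal, the same 10% band of the table, they stood at percentiles 99.2 and 98.6. Each gene was read by 1 probe set, so no other named probe set repeats its measurement.

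**Figure D1:**
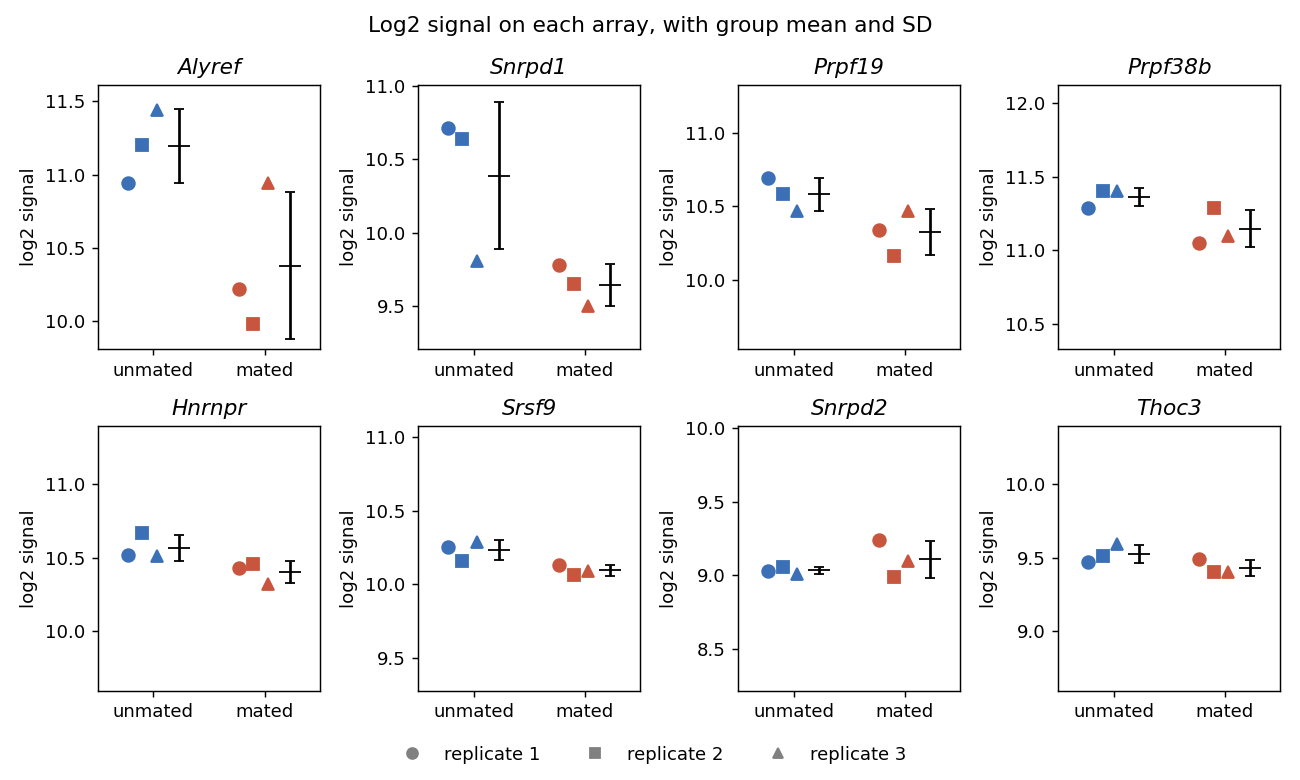
Log2 signal of 8 genes on each of the 6 arrays (symbols mark replicates 1 to 3; blue unmated, red mated; the black bar is the group mean with its SD, n = 3 per group); each panel spans the same log2 range. Alyref and Snrpd1 spread widely, with mated replicate 3 at 10.94 for Alyref and unmated replicate 3 at 9.81 for Snrpd1. The other 6 genes vary less, with Prpf19 the widest of them at an SD within groups of 0.13.

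The other measured proteins of the Sm ring had differences from -0.09 to 0.08, with no interval below -0.32. Snrpd2 (SmD2), which sits beside SmD1 in the ring, was at 9.03, 9.06 and 9.01 in unmated and 9.24, 8.99 and 9.10 after mating, a difference of 0.08 (95% confidence interval -0.11 to 0.26). The mated arrays enclosed the unmated values. Snrpb, which encodes SmB, differed by -0.09 (-0.32 to 0.14), and Snrpg and Snrpf, for SmG and SmF, by -0.04 (-0.20 to 0.11) and 0.03 (-0.29 to 0.36). Snrpn, an imprinted relative of Snrpb used mainly in neurons, had a low signal of 7.62 ± 0.07 in unmated and 7.56 ± 0.07 after mating (SD, n = 3 each). Outside the ring, Snrpa, a protein of the U1 snRNP, and Snrpb2, one of the U2 snRNP, differed by -0.013 (-0.20 to 0.17) and 0.06 (-0.23 to 0.34). Without Snrpd1, 4 of the 7 Snrp genes lay lower and 3 higher, with a median of -0.013 that turned to 0.005 after a repeated quantile normalization, to 0.05 without unmated replicate 2 and to 0.020 without mated replicate 2. Snrpf and Snrpb2 varied most within groups after Alyref and Snrpd1, with SDs of 0.22 and 0.18. Mated replicate 1 was high for both, at 8.96 for Snrpf against 8.39 and 8.60 on the other mated arrays. The gene for SmD3 is not analysed here.

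Sm-like (Lsm) proteins form rings of their own. Lsm6, part of the ring that binds U6 RNA in the nucleus and of the ring that starts mRNA decay in the cytoplasm, had the smallest p of this family at a difference of 0.08 (-0.09 to 0.25). Of the 12 Lsm genes 8 lay higher and 4 lower, with a median of 0.008 that turned to -0.008 without mated replicate 1. Lsm5, at the other end, differed by -0.07 (-0.29 to 0.14), and its dimmer probe set by 0.18 in the opposite direction, at signals from 6.96 to 7.44 close to background. Lsm11, a component of the U7 snRNP that trims histone transcripts, was dim at 7.47 ± 0.08 in unmated and 7.50 ± 0.18 after mating (SD, n = 3 each). Its partner Lsm10 differed by 0.06 (-0.15 to 0.27), and Lsm14a, a cytoplasmic member linked to mRNA storage, by 0.007 (-0.15 to 0.16).

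SF3a and SF3b are the parts of the U2 snRNP that hold the branch site. Sf3b1, the largest SF3b subunit and the one that contacts the branch site, was bright and steady at 12.06 ± 0.02 in unmated and 12.07 ± 0.06 after mating (SD, n = 3 each). Sf3a3 had the smallest p of the 8 genes. It was at 9.97, 10.04 and 9.84 in unmated and 9.95, 9.70 and 9.71 after mating, and mated replicate 1 lay among the unmated values. Its difference was -0.16 (-0.38 to 0.05). Sf3a2, another SF3a subunit, lay at the upper end with 0.07 (-0.11 to 0.24). In all, 5 lay lower and 3 higher, with a median of -0.05 that ranged from -0.08 to -0.0008 with 1 array left out.

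Among the Prpf genes, Prpf19 and Prpf38b had the largest differences, and the others ranged from -0.11 to 0.09. Prpf19, the ubiquitin ligase at the centre of the complex that activates the spliceosome, was at 10.69, 10.58 and 10.47 in unmated and 10.34, 10.16 and 10.47 after mating. Mated replicate 3 equalled unmated replicate 3. The difference was -0.26 (95% confidence interval -0.49 to -0.03; unadjusted p = 0.0322, adjusted p = 0.984 by limma). Prpf38b, a relative of the spliceosomal protein Prpf38a, was at 11.29, 11.40 and 11.40 in unmated and 11.05, 11.29 and 11.10 after mating, with mated replicate 2 equal to unmated replicate 1. Its difference was -0.22 (-0.41 to -0.02; unadjusted p = 0.0332, adjusted p = 0.984 by limma), and Prpf38a itself differed by 0.007 (-0.19 to 0.20). Centring each array on its median took Prpf38b out of the genes under an unadjusted p of 0.05.

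The core of the tri-snRNP showed small differences. Prpf8, the large protein that cradles the catalytic RNA, was at 11.61 ± 0.04 in unmated and 11.57 ± 0.05 after mating (SD, n = 3 each), a difference of -0.03 (-0.19 to 0.12). Prpf3 had a mean of 9.47 in both groups, and Prpf4 and Prpf6 differed by 0.03 (-0.15 to 0.22) and -0.007 (-0.16 to 0.14). Prpf31 was at 9.48, 9.41 and 9.42 in unmated and 9.28, 9.39 and 9.32 after mating, with no overlap between the groups, and its difference was -0.11 (-0.26 to 0.05). Prpf18, a factor of the later catalytic step, had the highest difference of the family with 0.09 (-0.09 to 0.27). The family counted 6 lower, 4 higher and 1 at 0, with a median of -0.007 that turned to 0.002 when arrays were centred on their medians and to 0.018 without mated replicate 3.

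**Figure D2:**
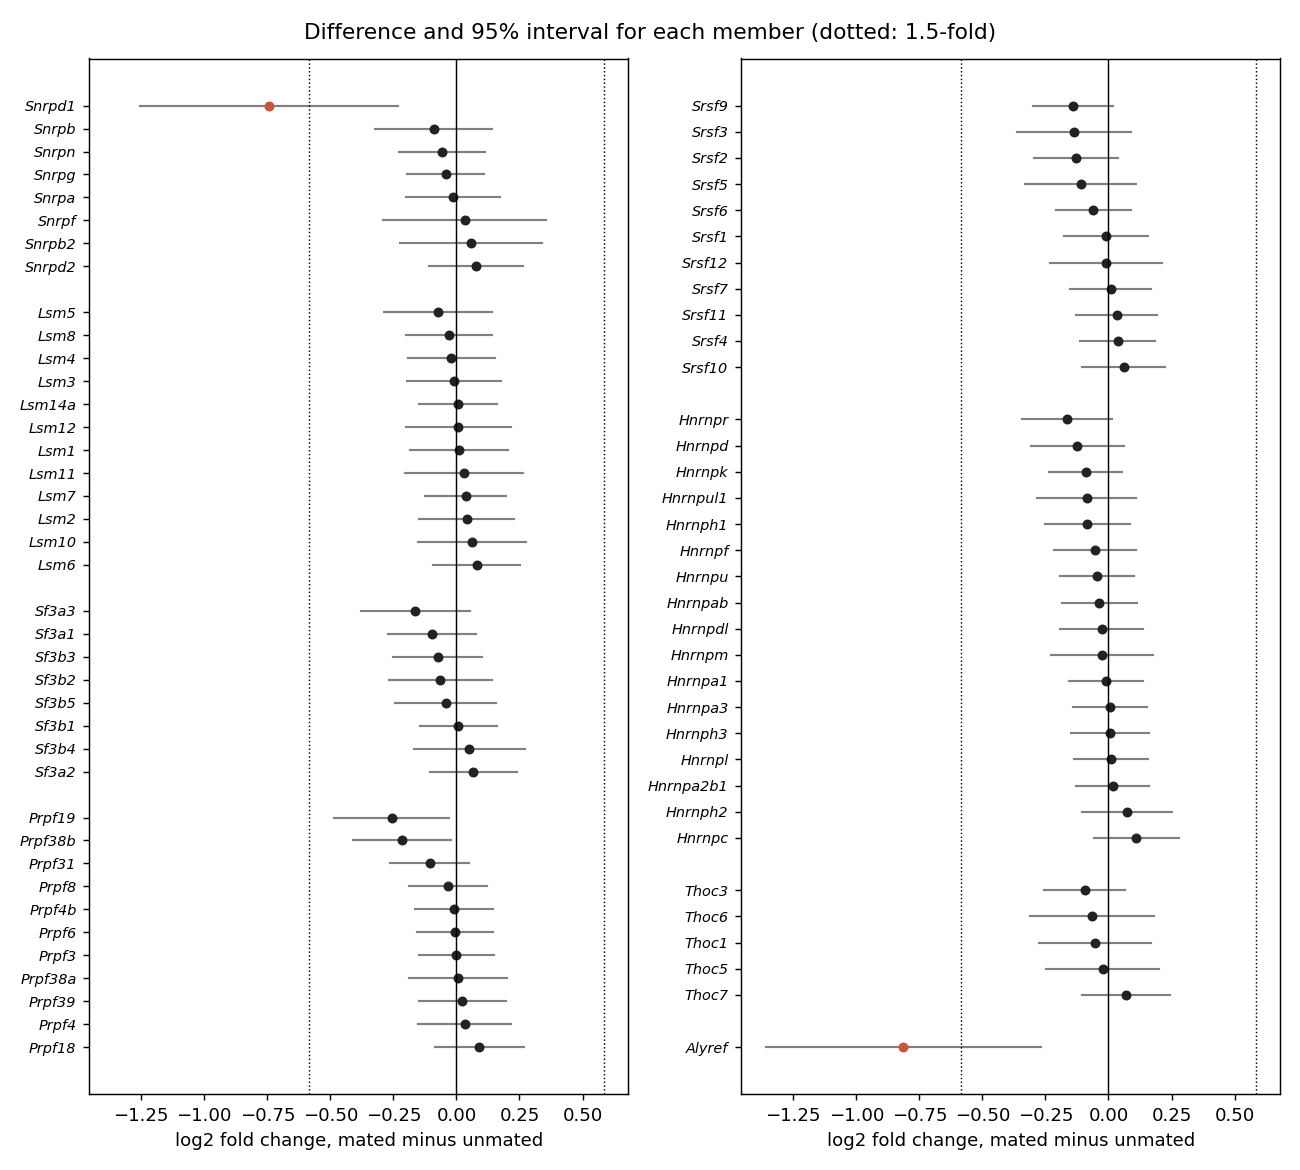
Log2 fold change (mated minus unmated; points) with its 95% confidence interval from limma (lines) for all 73 genes, grouped by family, with dotted lines at 1.5-fold. Alyref at -0.81 and Snrpd1 at -0.74 (red) lie beyond the dotted line; the intervals of the other 71 genes stay between the dotted lines.

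The SR proteins, which bind exons and recruit the spliceosome, counted 7 lower and 4 higher among 11 genes, with a median of -0.010. That median was -0.05 after a repeated quantile normalization and -0.0017 after median centring, and it lay between -0.06 and -0.025 with 1 array left out. Srsf9 had the smallest p, at 10.25, 10.16 and 10.29 in unmated and 10.13, 10.06 and 10.09 after mating. All 3 mated arrays lay below the unmated ones, by 0.03 at the nearest, and the difference was -0.14 (-0.30 to 0.02). Srsf2, which also acts in transcript elongation, was at 11.72, 11.70 and 11.77 against 11.52, 11.69 and 11.59, again without overlap, a difference of -0.13 (-0.30 to 0.04). Srsf5, the brightest probe set of the family, differed by -0.11 (-0.33 to 0.11), with mated replicate 2 at 12.56 above every unmated array. Srsf10 lay at the other end with 0.06 (-0.10 to 0.22). Srsf12 was the only member within the range of odorant and pheromone receptor genes, which served as a guide to background (upper limit 7.13, with 28.9% of all genes within it), at 7.04 ± 0.17 in unmated and 7.03 ± 0.07 after mating (SD, n = 3 each).

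The hnRNPs coat nascent transcripts, and many repress splice sites. Of the 17 genes, 11 lay lower and 6 higher, with a median of -0.027 that stayed below 0 under both other scalings and with any 1 array left out. Hnrnpr, which also travels with mRNA in the cytoplasm, was at 10.52, 10.67 and 10.51 in unmated and 10.43, 10.46 and 10.32 after mating. These groups did not overlap, and the difference was -0.16 (-0.34 to 0.02). Hnrnpk, which binds C-rich RNA, was at 13.04, 13.10 and 13.09 against 12.99, 13.00 and 12.97. The groups again did not overlap, at a difference of only -0.09 (-0.24 to 0.06), and its other probe set gave -0.07, also without overlap. Hnrnpc, which binds uridine tracts, was highest of the family with 0.11 (-0.06 to 0.28).

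Several hnRNP genes were read by more than 1 probe set. Hnrnpa3, with 8 probe sets, gave differences from -0.05 to 0.023, Hnrnpa1, with 3, from -0.017 to 0.013, and both probe sets of Hnrnpf gave -0.05. The brighter probe set of Hnrnpa2b1 gave 0.017 and the dimmer one -0.06. Genes for hnRNP A1 and A3 have many near-identical processed copies, so which copy was measured is uncertain. Hnrnpa2b1, Hnrnpa1 and Hnrnpk had the smallest SDs within groups of the set, from 0.023 to 0.025, below the first percentile of all genes.

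The THO proteins, which load Alyref onto transcripts, had differences from -0.09 to 0.07, and each of their 95% confidence intervals included 0. Thoc3 was at 9.47, 9.51 and 9.59 in unmated and 9.49, 9.40 and 9.40 after mating, where mated replicate 1 lay among the unmated values, and its difference was -0.09 (-0.25 to 0.07). Thoc6, Thoc1 and Thoc5 differed by -0.07 (-0.31 to 0.18), -0.05 (-0.28 to 0.17) and -0.023 (-0.25 to 0.20). Thoc7 was the only one higher, with 0.07 (-0.10 to 0.24). The median of the 5 was -0.05, and it was -0.11 without mated replicate 1 and -0.003 without mated replicate 3.

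**Figure D3:**
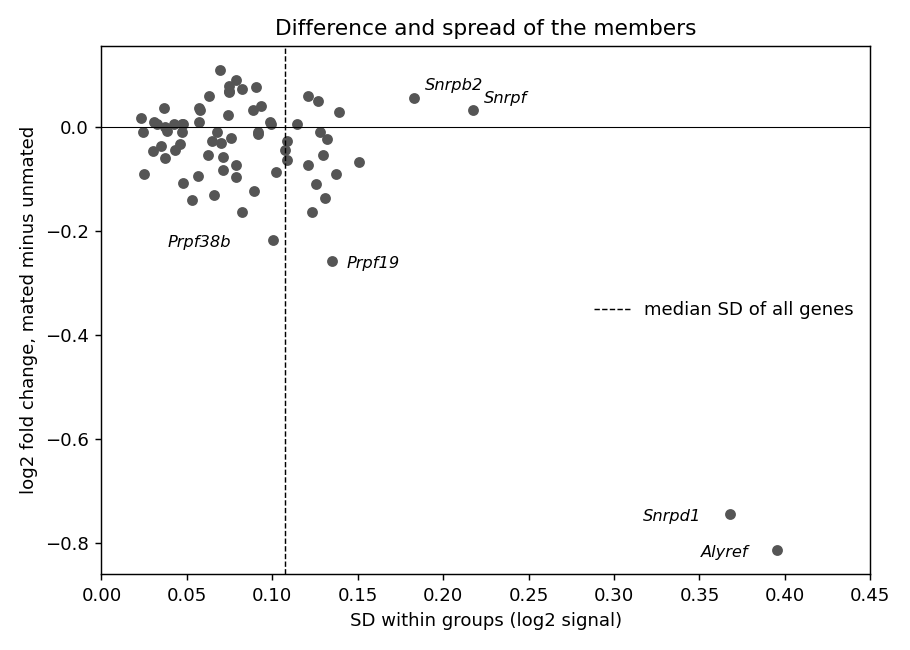
Each point is 1 of the 73 genes, placed by its SD within groups (log2 signal, horizontal) and its log2 fold change (mated minus unmated, vertical); the dashed line is the median SD of all 14506 genes, 0.11. Alyref and Snrpd1 lie alone at an SD of 0.40 and 0.37, with Snrpf next at 0.22.

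Counted by sign, 43 of the 73 members (58.9%) had a lower mean in mated rats, as did 45.5% of all genes and 49.2% of the genes above the receptor range, where all members but Srsf12 lie. Without Alyref and Snrpd1 the count was 41 of 71 (57.7%), and their median difference was -0.010, beside 0.010 for all genes and 0 for those above the receptor range. Apart from Snrpd1, the groups did not overlap for 5 of 71 members (7.04%), all lower in mated rats (Prpf31, Srsf2, Srsf9, Hnrnpr and Hnrnpk), where 8.47% of all genes did not overlap, 3.23% lower and 5.24% higher. With Snrpd1 counted, 6 members were separated lower and 3 higher after a repeated quantile normalization, beside 4.8% and 4.64% of all genes. After median centring they were 4 and 2, beside 3.18% and 5.19%.

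The arrays of mated replicates 2 and 3 were most often the lowest. Mated replicate 3 had the lowest or tied lowest value of the 6 arrays for 26 of the 73 genes (35.6%, against 18.9% of all genes), and mated replicate 2 for 19 (26%, against 16.5%). Mated replicate 1 had the highest for 23 (31.5%, against 24.7%). Averaged over the 71 genes, the signal relative to the unmated mean was 0.016, -0.039 and -0.055 in mated replicates 1, 2 and 3, and -0.002, 0.020 and -0.018 in the unmated ones. Leaving out mated replicate 1 raised the count of lower members to 53 of 73 (72.6%, against 48.5% of all genes). Leaving out mated replicate 3 reduced it to 38 (52.1%, against 44% of all genes). Ciliated cell markers followed the same order on the mated arrays, but not on the unmated ones. Of 12 measured, 11 had a lower mean in mated rats, beside 45.5% of all genes. Their mean relative to the unmated mean was 0.08, -0.16 and -0.21 in mated replicates 1, 2 and 3 and -0.12, 0.09 and 0.030 in the unmated ones. Of these markers 1 lay within the receptor range. The mean signal over the list was 10.26 to 10.46 on the unmated and 10.16 to 10.45 on the mated arrays, and its part in the member values was not tested. Fibroblast markers also had lower means in mated rats for 10 of 11, at -0.22, -0.08 and -0.08 in mated replicates 1, 2 and 3 and 0.08, 0.06 and -0.13 in the unmated ones. All 4 measured erythroid markers had higher means, at -0.05, 0.17 and 0.42 in mated replicates 1, 2 and 3 and 0.11, 0.013 and -0.12 in the unmated ones. Among 11 markers of simple and secretory epithelium, 8 had higher means and 3 lower. Their mean was -0.002, 0.010 and 0.13 in mated replicates 1, 2 and 3 and -0.03, -0.07 and 0.11 in the unmated ones. Smooth muscle markers had lower means for 6 of 8, at -0.19, -0.04 and 0.04 in the mated and 0.02, 0.15 and -0.17 in the unmated replicates. The fibroblast list averaged 7.56 to 7.77 on the unmated and 7.48 to 7.62 on the mated arrays, and the erythroid list 8.06 to 8.29 and 8.12 to 8.60. The part of these lists in the member values was not tested. In bulk tissue, fewer cells of a type and less RNA in each cell cannot be told apart.

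**Figure D4:**
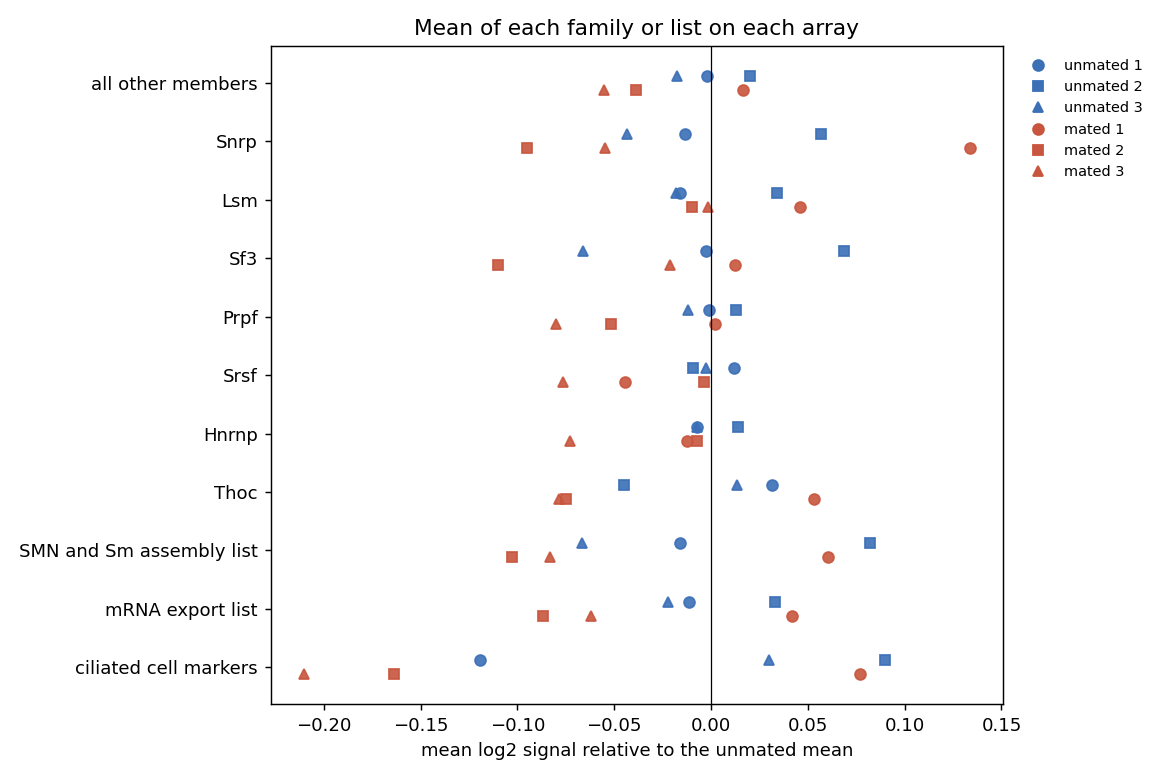
Mean log2 signal relative to the unmated mean of each gene, for the families without Alyref and Snrpd1, for lists of related genes and for ciliated cell markers, on each array (blue unmated, red mated; circle, square and triangle are replicates 1, 2 and 3). Over all other members mated replicates 2 and 3 lie at -0.039 and -0.055, and mated replicate 1 at 0.016.

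Other genes of the pathway, from 8 lists of factors outside the families, were counted in the same way. Of 181 listed genes 155 were measured, 0 passed the adjusted threshold by limma, and 4 were lower and 0 higher at an unadjusted p under 0.05 (2.58%), beside 1.55% lower and 3.02% higher of all genes. By sign, 107 (69%) lay lower and 44 higher, with a median of -0.027, beside 45.5% lower of all genes and 49.2% of those above the receptor range; 103 lay lower after a repeated quantile normalization and 100 after median centring. Without mated replicate 1 the count was 124, beside 48.5% lower of all genes, and without mated replicate 3 it was 88, beside 44%. The lowest count was 84, without unmated replicate 2, beside 45.8% of all genes.

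Among the export partners of Alyref, 13 of 17 lay lower. Ddx39b, the helicase that joins Alyref in TREX, had the smallest p, at 11.96, 12.07 and 12.15 in unmated and 11.94, 11.92 and 11.86 after mating. The groups did not overlap, by 0.02 at the nearest, and the difference was -0.15 (-0.33 to 0.02). Nxf1, the export receptor itself, differed by 0.06 (-0.11 to 0.23).

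The factors that assemble Sm proteins onto RNA counted 12 lower and 3 higher of 16. Smn1, for the SMN protein, differed by -0.013 (-0.27 to 0.24), and Xpo1, the exporter of snRNA and the gene of smallest p, by 0.17 (-0.01 to 0.35). Of 21 other snRNP proteins 16 lay lower. Sart1, which joins the tri-snRNP to the spliceosome, had the smallest p, at 9.42, 9.51 and 9.47 in unmated and 9.29, 9.25 and 9.35 after mating. Its difference was -0.17 (-0.33 to -0.01; unadjusted p = 0.0354, adjusted p = 0.984 by limma). Sart3, a recycling factor named after its values were seen, differed by -0.16 (-0.31 to -0.008) at an unadjusted p = 0.0417 and an adjusted p = 0.984 by limma.

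The lists of splice site recognition, catalytic steps, exon junctions and polyadenylation held no gene under an unadjusted p of 0.05. They counted 9 lower of 11, 14 of 24, 8 of 13 and 11 of 16. Their genes of smallest p were Puf60, which binds pyrimidine tracts, at -0.11 (-0.27 to 0.05), the splicing factor Cwc25 at -0.15 (-0.34 to 0.04), the decay factor Upf3b at -0.13 (-0.30 to 0.04) and Cpsf3, the endonuclease that cleaves pre-mRNA ends, at -0.12 (-0.28 to 0.04).

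Splicing regulators and SR kinases counted 24 lower and 13 higher of 37. Cirbp, a cold-inducible RNA-binding protein, had the smallest p of all 8 lists. It was at 11.22, 11.19 and 11.24 in unmated and 10.98, 11.02 and 10.73 after mating, so every mated array lay below every unmated one. Its difference was -0.31 (-0.51 to -0.10; unadjusted p = 0.00898, adjusted p = 0.984 by limma). Pspc1, a paraspeckle protein named after its values were seen, differed by -0.22 (-0.41 to -0.03).

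The labelled tissue was checked against epithelial markers. The 11 measured markers of simple and secretory epithelium averaged 11.58 to 11.79 on the 6 arrays, all above the receptor range. Median signals over all probe sets were 7.89 to 7.94. Of 13 leukocyte markers 9 lay within the receptor range, as did 6 of 8 neuronal, 3 of 7 endothelial, 2 of 8 smooth muscle, 2 of 11 fibroblast and 1 of 4 erythroid markers, the others lying above it. The 22 cell cycle genes counted 9 lower and 11 higher. None passed the adjusted threshold by limma. At an unadjusted p under 0.05, 2 were lower and 0 higher (9.09%), beside 1.55% lower and 3.02% higher of all genes. These were Prim1, at -0.90 (-1.45 to -0.35), and Tyms, at -0.30 (-0.59 to -0.0035).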

How the data were processed

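RNA from 6 endosalpinx samples, 1 rat each, was hybridised to Affymetrix arrays after whole-transcript labelling of 0.3 µg of total RNA, per the labels. The deposited values are log2 signals, which the authors made with RMA in Affymetrix Expression Console, per the submitters' processing notes; versions, batches and array build are not given in the sources used here. RMA equalises the arrays' distributions, so a shift of most genes would not show, and small signals understate a change. The table has 29214 probe sets; the 15310 annotated with exactly 1 symbol were kept, giving 14506 genes, and 323 with several symbols and 13581 unnamed ones were not used. One multi-symbol probe set (Snurf with Snrpn) was thereby left out.

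Groups were compared with limma 3.58.1 in R 4.3.3 (lmFit and eBayes, no block, two-sided), with Benjamini-Hochberg adjustment over all genes; the procedure was tested on simulated data. Intervals are 95% intervals of that fit, unadjusted for the number of genes. The receptor range ends at the 95th percentile of the mean signal of 1256 odorant and pheromone receptor genes. Signals of different genes depend on their probes and are not ranked as abundance. The labels do not say that replicate numbers pair animals.

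The set, the lists and the motifs were chosen with earlier results of these data known. Named genes were Alyref, Snrpd1, members with an unadjusted p under 0.05, the ends of each family by signal, p and difference, the Thoc genes, Snrpd2, and the gene of smallest p in each list; the others named were chosen after their values were seen. Precision is limited by the number of arrays.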

Additional observations from a re-analysis of the deposited data

How the results depend on the processing

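The 28 results were recomputed under 16 alternatives, and of 448 values 418 moved by less than the spread between animals (counts by no more than 1.5 times) and 30 moved further. None of the 160 values of single genes changed sign. These genes were picked for a small p or a large difference, and several alternatives, such as the replicate block, cannot alter a difference. Among the 71 other members, 57 kept their sign without unmated replicate 3 and 63 without unmated replicate 1. These were the fewest and the most with 1 array left out. Of 112 family medians 7 changed sign, those of Snrp (0.005 to 0.05 in 4 of the alternatives, among them 0.010 without the dimmest 50% of genes), Prpf (0.002 and 0.018) and Lsm (-0.008). No member passed the adjusted threshold by limma under any of the 16. At an unadjusted p under 0.05, 2 to 6 members were lower and 0 higher, Alyref and Snrpd1 among them each time. Over the same alternatives 1.17% to 4.01% of all genes were lower and 1.81% to 5.67% higher. The count of members lower at that level was 2 to 4 with 1 array left out, and 0 to 2 without Alyref and Snrpd1. Beside these stood the same 1.17% to 4.01% of all genes. Without Alyref and Snrpd1 the count was 1 after median centring, beside 1.28% of all genes, and 4 with array weights. Hnrnpr and Sf3a3 joined under array weights, where the share of all genes that were lower rose from 1.55% to 3.02%. Alyref ranged from -1.09 to -0.61 and Snrpd1 from -1.03 to -0.58 with 1 array left out. Members separated between groups numbered 10 to 15 lower and 1 to 4 higher with 1 array left out, where fewer arrays separate more easily (6.01% to 12.4% of all genes lower and 8.58% to 14.4% higher), and 3 and 2 higher after a repeated quantile normalization and after median centring. Pathway genes at an unadjusted p under 0.05 numbered 7 with an intensity trend and 8 with array weights, under which all genes gave 4.31% and 8.32%, against 4.57% in the original fit. The cause of these shifts with scaling and weights was not tested.

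Same-numbered animals did not deviate together: the correlations of their deviations from the group means over all genes were 0.004, -0.083 and 0.074. With the replicate number as a block, 4 members were lower and 0 higher at an unadjusted p under 0.05, the same genes as without it, and 672 of all genes against 663. Not every sample correlated best with its own number. The 95% interval, unadjusted for the number of genes, had a median half-width of 0.17 over the members.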

Other observations

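Kinases of the CLK family, which phosphorylate SR proteins, included the only 2 genes of the 155 pathway genes whose mated values all lay above the unmated ones. They were noticed after their values were seen. Clk1 was at 12.41, 12.30 and 12.33 in unmated and 12.59, 12.49 and 12.42 after mating, a difference of 0.15 (95% confidence interval -0.02 to 0.32; unadjusted p = 0.0729, adjusted p = 0.984 by limma). Clk4 was at 10.69, 10.69 and 10.61 against 10.80, 10.75 and 10.71, a difference of 0.09 (-0.06 to 0.24). Clk3 and Clk2, the other measured kinases of the family, differed by 0.09 (-0.07 to 0.25) and 0.010 (-0.15 to 0.17), and their groups overlapped. In the opposite direction 11 of the 155 pathway genes were separated, so that 8.39% were separated in either direction. Of all genes, 5.24% were separated higher and 3.23% lower, 8.47% in either direction.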
